A study of Caenorhabditis elegans with 2 samples.

Results

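Chromatin immunoprecipitation and sequencing (ChIP-seq) peaks of the zinc finger factor LSY-2 were set against the nuclear transfer RNA (tRNA) genes of Caenorhabditis elegans. The annotation of build WBcel235, which is ce11, holds 634 genes of biotype tRNA, of which 22 are mitochondrial and 612 nuclear, and the 612 nuclear genes are described here. A tRNA gene was called bound when the summit of a peak in the authors' list that passed a threshold on the irreproducible discovery rate (IDR) lay within 250 bp of the gene. By that rule 73 of the 612 genes were bound, through 68 peaks. The chromatin came from whole mixed-stage embryos of strain OP367, pooled males and females, with genotype unc-119(tm4063) III; wgIs367, where wgIs367 is an insertion for lsy-2 whose product carries an enhanced green fluorescent protein (eGFP) tag. The 2 samples were biological replicates of 1 group, and there was no comparison strain, stage or treatment. The labels give lsy-2 as the antibody target and describe the experiment as directed against eGFP-lsy-2. LSY-2 binding was therefore measured on a tagged protein, averaged over all cells of the embryos.

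A tRNA gene is transcribed by RNA polymerase III, and much of its promoter lies inside the gene. The factor TFIIIC recognises the internal A box and B box and places TFIIIB just upstream of the gene, where TFIIIB recruits the polymerase, and transcription ends at a run of T. LSY-2 belongs to the C2H2 zinc finger proteins and is known for its role in making the left and the right ASE taste neuron unlike each other, where its known targets are genes of RNA polymerase II. Many tRNA genes of C. elegans are identical copies, many lie in introns of protein-coding genes, and the X chromosome holds a large share of them.

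Identical tRNA genes differ only in what surrounds them, so a bound gene is shown beside identical copies without an IDR summit nearby. ZK899.t1, a proline tRNA gene on X, had a peak of rank 1007, with the summit inside the gene, and C16B8.t1 and C48C5.t1 are identical unbound copies. The choice was made after the values were seen, and the copies are those whose upstream bases matched best. Each line runs 5′ to 3′ on the strand of the gene, from 40 bases upstream to the last base of the gene, in the RefSeq genome sequence of WBcel235. Capitals mark a match to the B box letters GTTCNANNC.
ZK899.t1, tRNA-Pro, chrX:9467729-9467840, minus strand: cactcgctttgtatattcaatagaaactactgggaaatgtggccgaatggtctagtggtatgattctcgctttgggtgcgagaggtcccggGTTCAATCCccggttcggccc
C16B8.t1, tRNA-Pro, chrX:3969516-3969627, plus strand: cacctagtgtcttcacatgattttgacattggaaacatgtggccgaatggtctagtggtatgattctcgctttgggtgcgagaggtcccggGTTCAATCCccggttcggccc
C48C5.t1, tRNA-Pro, chrX:8969698-8969809, plus strand: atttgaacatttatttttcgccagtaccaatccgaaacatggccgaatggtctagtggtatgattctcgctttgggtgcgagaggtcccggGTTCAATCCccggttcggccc
The genes were 100% identical over their full length, B box included. Of the 40 upstream bases, C16B8.t1 shared 17 with ZK899.t1 and C48C5.t1 shared 16. The nearest IDR summit lay at -166040 bp from C16B8.t1 and at -133751 bp from C48C5.t1, whereas the summit at ZK899.t1 lay inside the gene.

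Further bound genes from 3 chromosomes are shown because their summits lay within 50 bp upstream of the gene, among the 40 printed upstream bases. The genes shown carry arginine, alanine, serine, leucine and serine tRNAs in the order printed. The orientation, the bounds and the capitals are as before, from the same RefSeq genome sequence.
F29C4.t1, tRNA-Arg, chrIV:143942-144054, plus strand: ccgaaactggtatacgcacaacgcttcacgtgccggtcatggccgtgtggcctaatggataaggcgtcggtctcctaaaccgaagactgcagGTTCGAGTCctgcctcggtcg
T07H6.t2, tRNA-Ala, chrX:6292278-6292389, minus strand: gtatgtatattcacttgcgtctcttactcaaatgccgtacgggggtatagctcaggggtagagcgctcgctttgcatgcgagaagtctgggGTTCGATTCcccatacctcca
ZC455.t1, tRNA-Ser, chrV:12780386-12780507, minus strand: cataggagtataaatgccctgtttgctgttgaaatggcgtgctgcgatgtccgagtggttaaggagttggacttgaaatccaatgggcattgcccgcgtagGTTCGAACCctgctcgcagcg
ZK678.t1, tRNA-Leu, chrX:15742010-15742133, plus strand: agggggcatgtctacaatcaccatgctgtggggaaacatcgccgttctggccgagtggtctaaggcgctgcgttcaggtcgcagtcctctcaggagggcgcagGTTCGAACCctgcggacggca
C53C7.t1, tRNA-Ser, chrX:13046538-13046659, plus strand: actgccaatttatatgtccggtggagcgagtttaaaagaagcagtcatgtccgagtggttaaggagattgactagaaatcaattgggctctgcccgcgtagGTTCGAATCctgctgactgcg
The summit lay 15 bp upstream of F29C4.t1, 17 bp upstream of T07H6.t2, 19 bp upstream of ZC455.t1, 33 bp upstream of ZK678.t1 and 18 bp upstream of C53C7.t1. Each of these genes held the B box letters, beginning at base 53, 52, 62, 64 and 62 of the gene.

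The 73 bound genes were 11.9% of the 612 (95% Wilson interval 9.59 to 14.7). Intervals on shares describe the sampling of genes or peaks only, and tRNA genes that share a peak, a cluster or a sequence are not independent of each other. Among every possible nuclear window of 72 bp, the median length of these genes, 1.44% had a summit within 250 bp. By the same rule, 9.86% of the 19973 nuclear protein-coding genes, which are far longer, had a summit. Among other noncoding classes the share was 17.1% of snoRNA genes, 10.1% of snRNA genes, 5.44% of genes annotated as ncRNA, 3.45% of miRNA genes, 1.22% of pseudogenes and 0.241% of piRNA genes. The tRNA share thus stood above that of windows of its own length and inside the range of the other short noncoding genes.

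Summits gathered in the gene itself and just upstream of it. Of the 68 peaks, 24 had the summit inside the nearest tRNA gene and 27 within 50 bp upstream, so that 51 of 68 lay in the gene or in the 50 bp before it. A further 8 summits lay 51 to 250 bp upstream, 6 lay 1 to 50 bp downstream and 3 lay 51 to 250 bp downstream. The median summit was at -4 bp from the first base of the gene, with quartiles at -26.5 and 40.5 bp. Expressed as density, IDR summits reached 882 per Mb in the 50 bp upstream and 524 per Mb inside the genes, against a nuclear mean of 25.4 per Mb. Downstream, the first 50 bp held 196 per Mb. The density was 13.1 per Mb at 251 to 500 bp upstream and 19.6 per Mb at the same distance downstream, so the excess did not reach past the 250 bp limit.

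**Figure D1:**
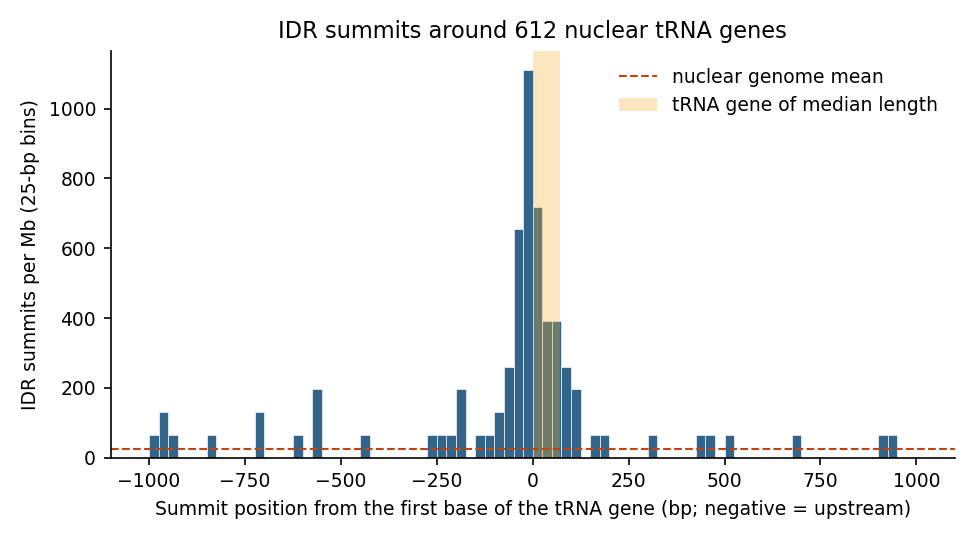
Density of IDR summits per Mb in bins of 25 bp, by position from the first base of 612 nuclear tRNA genes in the direction of transcription. Bars are counts divided by the bases in the bin, the shaded band is a gene of the median length of 72 bp, and the dashed line is the nuclear mean of 25.4 per Mb; the tall bars stand over the gene start and the bases just upstream.

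The 250 bp limit cut few genes. Just inside it were C18A11.t2, an arginine tRNA gene with a summit 245 bp downstream, Y38E10A.t1, an alanine tRNA gene with a summit at -227 bp, and R04E5.t1, a glycine tRNA gene with a summit at -204 bp. Just outside it were W09G10.t3, a threonine tRNA gene with a summit at -251 bp, K02A4.t1, a serine tRNA gene with a summit 356 bp downstream, and F59C12.t1, a valine tRNA gene with a summit 383 bp downstream.

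Peaks at tRNA genes were of middling to low signal, the authors' own value for the strength of a peak, which ranks peaks only within a list. Their median signal was 46.5, with a range of 33.6 to 146, and their median rank was 1697.5 in a list with 2550 nuclear peaks. The other 2482 nuclear IDR peaks had a median signal of 57.1 and a median rank of 1270.5. Only 1 peak at a tRNA gene ranked within the first 500 and 6 ranked within the first 1000. Of the 68, 65 were 380 bp long, the most frequent length in the list.

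The highest signal belonged to a peak whose summit was farthest from its gene. C18A11.t2, the arginine tRNA gene at X:8036685-8036757, had a peak of signal 146 at rank 350, and the peak, from 8036265 to 8036573, did not reach the gene. In replicate 1 its signal was 71.4 and in replicate 2 it was 75.8, with ranks 367 and 345. C28G1.t1, a glutamate tRNA gene on X, had a signal of 99.8 at rank 547, with signals of 49.7 and 44.2 in replicates 1 and 2. Its summit lay 126 bp upstream of the tRNA gene but 29 bp from the 5′ end of C28G1.2, and of the 68 summits it alone lay closer to a protein-coding 5′ end than to the tRNA gene. C37A2.t1, a cysteine tRNA gene on chromosome I inside an intron of the cyclin E gene cye-1, had its summit 11 bp into the gene and a signal of 89.2, with 56.7 in replicate 1 and 32.1 in replicate 2. The 3 highest-signal peaks were thus of unlike kinds, and the summit lay inside the tRNA gene only at C37A2.t1.

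Below these, most of the strong peaks sat on the gene. F41D9.t3, an asparagine tRNA gene on X inside sulp-3, had a signal of 73.6 and its summit at -44 bp, with 30.5 in replicate 1 and 44.7 in replicate 2. The tryptophan tRNA gene sup-5 on III, known for its amber suppressor alleles, had a signal of 73.1 with the summit 12 bp into the gene, and signals of 43.5 and 30.6 in replicates 1 and 2. It lies in an intron of fli-1, the gene of an actin-regulating protein of the gelsolin family. Y82E9BR.t1, a glycine tRNA gene on III inside lelo-2, had a signal of 68.6, with 38.0 and 28.9 in replicates 1 and 2. ZK899.t1, the proline tRNA gene printed above, had 67.1, with 33.4 and 32.9 in replicates 1 and 2. Replicate 1 was the higher at sup-5 and Y82E9BR.t1, replicate 2 at F41D9.t3, and both were close at ZK899.t1.

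The next peaks spread over several isotypes, an isotype being the set of tRNAs for 1 amino acid. F33G12.t1 (isoleucine, II) had a signal of 66.6 and F29C4.t1 (arginine, IV, in an intron of the collagen gene col-99) had 66.0. T07H6.t2 (alanine, X) followed with 62.3, C42D8.t1 (isoleucine, X) with 60.8 and ZC455.t1 (serine, V) with 60.2. The leucine genes ZK678.t1 and C04E7.t1, both on X, had 57.5 each, and the serine pair C53C7.t1 and C53C7.t2 on X shared a peak of 56.8. ZC455.t1, sup-5, F33G12.t1, F29C4.t1, C18A11.t2 and C37A2.t1 were the genes of highest peak signal on V, III, II, IV, X and I. The first 15 peaks by signal thus covered all 6 chromosomes.

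The low rank of these peaks was also seen in the longer lists of 30000 peaks, which were made as input for IDR and include background. In the pooled list, 0 of the 246 nuclear peaks of ranks 1 to 250 lay at a tRNA gene, against 4.2% (2.76 to 6.34) at ranks 1001 to 1500 and 4.24% (2.87 to 6.23) from rank 2001 to the last rank of the IDR list. Past that rank the share was 3.66% up to rank 3500 and 2.67% at ranks 3501 to 5000. It then fell to 1.12% at ranks 5001 to 10000 and 0.45% at ranks 20001 to 30000, near the 0.325% of nuclear sequence that lies within 250 bp of a tRNA gene. A summit of the pooled list lay within 250 bp of 286 of the 612 genes, or 46.7%, where 15.9% of all 72-bp windows had such a summit. The corresponding share was 44.1% in replicate 1 and 47.4% in replicate 2. The share at tRNA genes was thus highest in the bands from rank 1001 to 3500, on both sides of the rank where the authors' threshold fell, and the intervals of these bands overlapped.

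**Figure D2:**
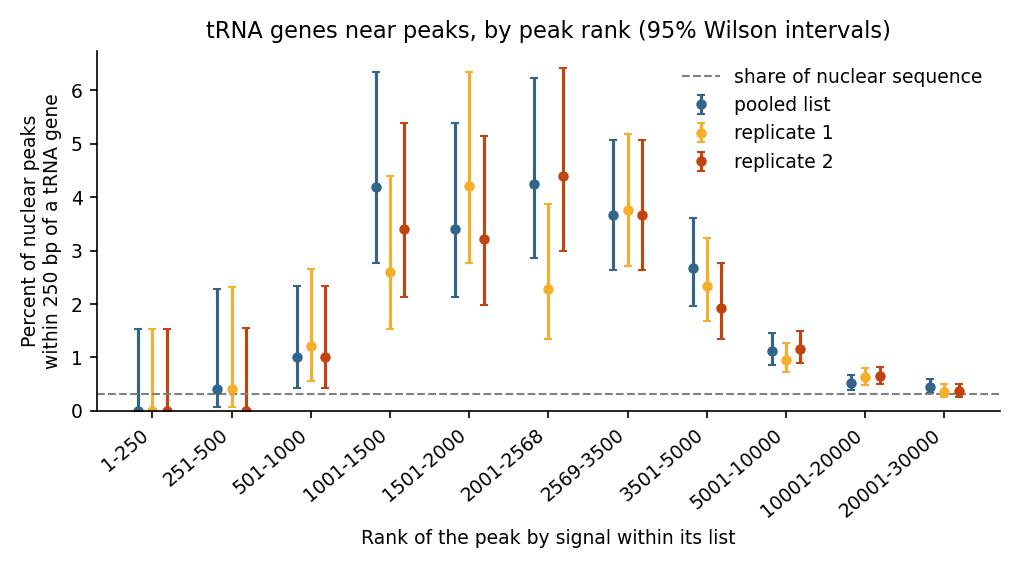
Percent of nuclear peaks whose summit lay within 250 bp of a tRNA gene, by rank of the peak's signal within the pooled list and within each replicate's list. Points are shares, bars are 95% Wilson intervals and the dashed line is the 0.325% of nuclear sequence within that distance; in the pooled list the share is 0 at ranks 1 to 250 and 4.2% at ranks 1001 to 1500.

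Both replicates placed 35 of the 68 peaks among their top peaks, taken as the highest by signal in a number equal to the length of the IDR list. In all, 47 overlapped a top peak of replicate 1, 52 did so in replicate 2, and the 35 that did so in both were 51.5% (39.8 to 62.9). The share in both was 73.0% (71.3 to 74.8) for the other nuclear IDR peaks, and 69.2% (67.2 to 71.2) for the 2123 of them in the same signal range. Among peaks ranked below the first 1000, where most peaks at tRNA genes lay, the shares were 46.8% (34.9 to 59.0) and 55.7% (53.2 to 58.2), and these intervals overlapped. The Spearman correlation of the replicate signals was 0.251 over 67 peaks at tRNA genes and 0.686 over 2472 other peaks, or 0.51 over 2113 of the same signal range, all taken from lists that share the same libraries. Below the first 1000 ranks it was 0.073 and -0.031. Peaks were ranked by a signal that draws on both replicates, and keeping a narrow band of it can itself lower this correlation. The values within the band therefore do not measure how well the replicates agreed. The peak at F17H10.t1 overlapped no peak of replicate 2.

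**Figure D3:**
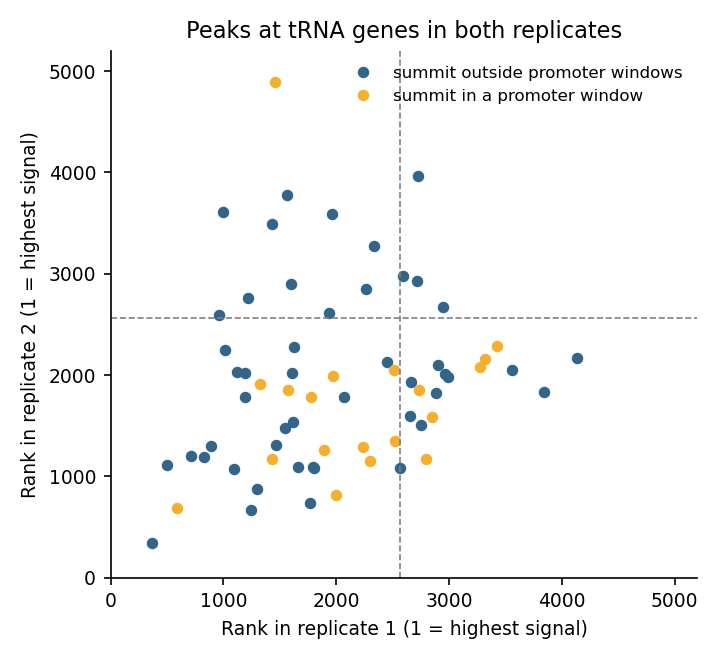
Rank by signal in replicate 1 and in replicate 2 of 67 IDR peaks with a summit within 250 bp of a tRNA gene, coloured by whether the summit lay in a promoter window, which runs from 1000 bp before to 300 bp after a protein-coding 5′ end. Each point is a peak, the axes are linear and dashed lines stand at the length of the IDR list; 35 of the 68 peaks ranked within it in both replicates.

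Peaks at tRNA genes, like tRNA genes as a whole, lay mostly away from protein-coding promoters, unlike the other LSY-2 peaks. A promoter window was taken to begin 1000 bp before the 5′ end of a protein-coding transcript and to end 300 bp after it. Of the 68 summits, 19 fell in such a window, or 27.9% (18.7 to 39.6), and 49 fell outside. Of the other 2482 nuclear IDR summits, 1794 fell in one, or 72.3% (70.5 to 74.0). The 68 peaks were chosen by closeness to tRNA genes, and only 160 of all 612 tRNA genes overlapped such a window. The contrast with the other peaks therefore cannot be read apart from where tRNA genes lie. Below the first 1000 ranks the shares were 29.0% (19.2 to 41.3) and 65.8% (63.4 to 68.2), so the difference was also present among peaks of like rank. Seen from the side of the peaks, 49 of the 737 nuclear IDR peaks outside promoter windows lay at a tRNA gene, or 6.65% (5.07 to 8.68), against 1.05% (0.672 to 1.63) of the 1813 in promoter windows.

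For the tRNA genes themselves, no difference by closeness to a protein-coding promoter was resolved at this number of genes. A summit lay near 22 of the 160 genes that overlapped a promoter window, or 13.8% (9.26 to 19.9), and near 51 of the 452 others, or 11.3% (8.69 to 14.5). The difference of 2.47 percentage points had an interval of -3.08 to 9.18. With a narrower window, from 500 bp before to 100 bp after the 5′ end, it was 6.87 points (-0.474 to 16.7), and with one from 2000 bp before to 500 bp after, 4.35 points (-0.821 to 9.7). In proportion to each other, the shares of all windows of 72 bp differed more. A summit lay near 3.54% of them in promoter windows and 0.571% outside. Among genes outside promoter windows the density was 561 summits per Mb inside the gene and 929 per Mb in the 50 bp upstream, so the peak over the gene start was not limited to genes near promoters. The median distance to the nearest protein-coding 5′ end was 1126 bp for bound and 1494 bp for unbound genes.

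Nor was a difference by position inside a host intron resolved. Of the 612 genes, 284 lay wholly in an intron of a protein-coding gene, and 31 of these were bound, or 10.9% (7.8 to 15.1). Of the 328 genes with no host intron 42 were bound, or 12.8% (9.61 to 16.9). The difference of 1.89 percentage points had an interval of -3.35 to 7.0, and without replicate 1 it was 4.26 points (-0.844 to 9.25). Intron windows of the same length, those in promoter windows included, had a summit in 0.863%. Windows outside both introns and promoters had one in 0.537%. Promoters were left out of the latter only, so these shares are not a like comparison for the gene classes. Of the genes on the strand of the host 16 of 161 were bound, or 9.94% (6.21 to 15.5), and of those on the opposite strand 15 of 122, or 12.3% (7.59 to 19.3). The bound intronic genes of highest signal were C37A2.t1 in cye-1 and sup-5 in fli-1, both on the strand of the host, and F41D9.t3 in sulp-3, Y82E9BR.t1 in lelo-2, F33G12.t1 in F33G12.3, F29C4.t1 in col-99, ZC455.t1 in ZC455.1 and T21B4.t1 in col-85, all on the opposite strand. In all, 10 tRNA genes overlapped a protein-coding exon, and 1 of them was bound.

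The X chromosome held 276 of the 612 tRNA genes, or 45.1%, where it held 13.7% of protein-coding genes. On X 37 tRNA genes were bound, or 13.4% (9.88 to 17.9), and on the autosomes 36 of 336, or 10.7% (7.84 to 14.5). The difference of 2.69 percentage points had an interval of -2.46 to 8.05. By autosome the share was 12.1% on I, 14.0% on II, 12.5% on III, 9.86% on IV and 6.41% on V, with intervals that all overlapped. The background ran the other way. All 72-bp windows had a summit in 0.865% on X and in 1.56% on the autosomes, although V alone, at 0.87%, was like X. Protein-coding genes had a summit in 5.42% on X and in 5.31% on V to 16.4% on III among the autosomes.

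**Figure D4:**
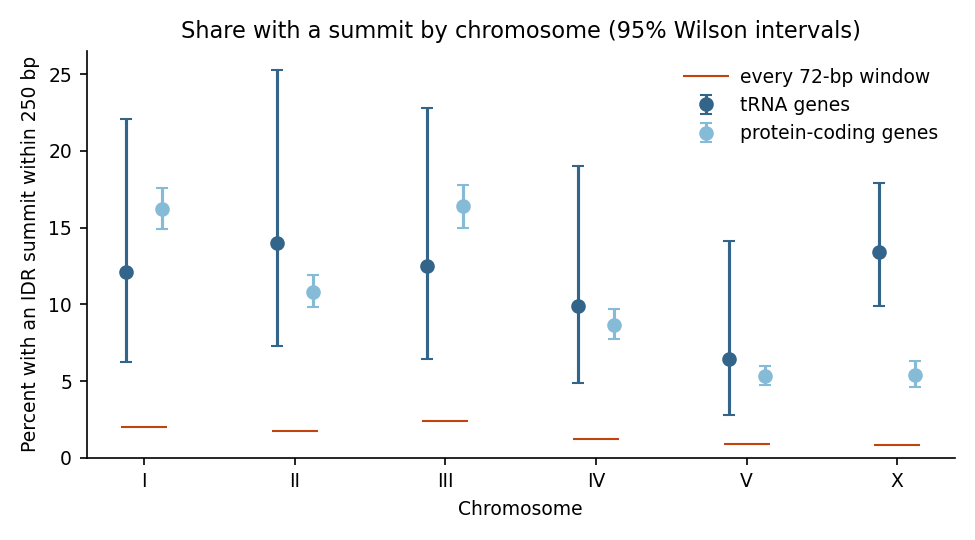
Percent of tRNA genes, of protein-coding genes and of all 72-bp windows with an IDR summit within 250 bp, by chromosome. Points are shares with 95% Wilson intervals and horizontal lines are the shares of windows; on X the tRNA share of 13.4% stands above the protein-coding share of 5.42%, and on I and III it stands below.

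A larger part of the LSY-2 peaks on X than on the autosomes lay at tRNA genes. They were 34 of the 268 nuclear IDR peaks on X, or 12.7% (9.22 to 17.2), and 34 of the 2282 on the autosomes, or 1.49% (1.07 to 2.07). The sequence within 250 bp of a tRNA gene made up 0.803% of X and 0.222% of the autosomes. Among peaks outside promoter windows, 25 of 107 on X lay at a tRNA gene, or 23.4% (16.4 to 32.2), against 24 of 630 on the autosomes, or 3.81% (2.57 to 5.61).

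Per gene, the share bound was higher among single tRNA genes than among genes with another tRNA gene within 1000 bp, by an amount that depended on the settings. The counts were 55 of 376 single genes, or 14.6% (11.4 to 18.6), and 18 of 236 clustered genes, or 7.63% (4.88 to 11.7). The difference of 7.0 percentage points had an interval of 1.79 to 11.8. From the list of replicate 2 alone, without replicate 1, it was 4.13 points (-1.15 to 8.96), from that of replicate 1 alone 5.35 points (0.533 to 9.75), and with a distance limit of 1000 bp 0.861 points (-5.23 to 6.51). With clusters defined by a gap of 250 bp it was 2.82 points (-4.17 to 8.01), and with only the IDR peaks above the list's median signal 2.19 points (-0.604 to 4.7). The interval thus reached below 0 under 4 of these 5 settings. It stayed above 0 under every other setting tried. Among them were distance limits of 100 bp (8.06, 3.24 to 12.5) and 500 bp (5.57, 0.115 to 10.6), and a cluster gap of 5000 bp (8.38, 3.21 to 13.7). With the main settings the single genes had the higher share on X, at 17.7% and 8.89%, and on the autosomes, at 12.8% and 5.94%. By cluster size the share was 9.62% in clusters of 2, 4.76% in clusters of 3 and 2.63% in clusters of 4 or more, where 1 of 38 genes was bound. Of 22 genes in clusters of 5 or more, 0 were bound, for which the interval reaches 14.9%.

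Counted as units, clusters and single genes had shares with overlapping intervals. A summit lay at 13 of 100 clusters, or 13.0% (7.76 to 21.0), and at 55 of 376 single genes, or 14.6% (11.4 to 18.6). A cluster spans more sequence than a single gene, so the units were not of equal size. The 13 clusters held 13 peaks, and the lower share per gene went with more genes per unit. In 5 clusters, each a pair of genes sharing 1 peak, both genes were bound. These were the serine pairs C53C7.t1 and C53C7.t2 on X and F42A10.t1 and F42A10.t2 on III, the proline pair F46G11.t1 and F46G11.t2 on X, the pair M02F4.t1 and M02F4.t2 on X, which carry glycine and glutamate tRNAs, and the glycine pair F49D11.t1 and F49D11.t2 on I. The largest clusters without a bound gene were all on X. They were the 6 genes F22F1.t2 to F22F1.t7 at 8154445 to 8156707, the 6 histidine genes of F28H6 at 14135045 to 14137010, and 2 clusters of 5, the arginine and cysteine genes of K01A12 and the glutamine genes of H08J11.

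Nearly every isotype included a bound gene. Among the 607 genes to which RefSeq gives an isotype, all 20 standard isotypes had at least 1 bound gene, and the selenocysteine gene had none. Glycine had the most, 8 of 55 genes or 14.5% (7.56 to 26.2). The highest shares were 4 of 19 tyrosine genes, or 21.1% (8.51 to 43.3), and 6 of 31 valine genes, or 19.4% (9.19 to 36.3), and the lowest was 1 of 20 asparagine genes, or 5.0% (0.888 to 23.6). With 12 to 55 genes each, the intervals of these isotypes overlapped. None of the 5 genes without a RefSeq isotype was bound.

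Identical copies of a tRNA gene were seldom all bound. The 612 genes had 200 distinct sequences, and 57 sequences occurred in more than 1 copy, over 469 genes in all. Of these 57 families 36 had a bound member, and in 35 of the 36 other copies were unbound. Those 35 families held 385 genes, of which 60 were bound. With 11.9% of all 612 genes bound, few families would be bound in full whatever their copies shared, so this count says little about identical copies. The largest was a glycine tRNA of 29 copies on I, III, IV and X with 6 bound, among them Y82E9BR.t1, both F49D11 genes and M02F4.t1. A lysine tRNA of 25 copies had 3 bound, and the proline tRNA of ZK899.t1, with 24 copies, had 4 bound. Genes of a unique sequence were bound in 7.69% (4.35 to 13.2). Genes of 2 to 9 copies were bound in 13.2% (8.68 to 19.5) and genes of 10 or more copies in 13.2% (9.95 to 17.4), and these intervals all overlapped. Reads that match several copies equally can be placed at any of them, and how they were placed is not given in the sources used here, and its part in which copy carried a peak was not tested.

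The letters of the B box in the gene and a run of T after it were nearly universal, and the A box was not examined. The letters GTTCNANNC of the B box occurred, at any position, in 587 of 612 genes on the strand of the gene. Of these 72 were bound, or 12.3%. Of the 25 genes without a match 1 was bound. The same letters occurred on either strand in 2.45% of all nuclear windows of 72 bp. A run of TTTT within 30 bp downstream followed 605 genes, including all 73 bound genes, and 0 of the 7 genes without one was bound. A match to these letters is a description of the sequence and leaves few genes for comparison.

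The sequence upstream differed between bound and unbound genes in base composition. In the 100 bp before the gene the median GC content was 48.0% for bound genes, with quartiles of 43.0 and 52.0, and 41.0% for unbound genes, with quartiles of 35.0 and 46.0. Where upstream GC was at most 38%, 8 of 228 genes were bound, or 3.51% (1.79 to 6.77). Between that and 45% the count was 16 of 181, or 8.84% (5.51 to 13.9), and above 45% it was 49 of 203, or 24.1% (18.8 to 30.5). All 72-bp windows, split by the GC content of the 100 bp before them, had a summit in 1.26%, 1.39% and 2.43%. Outside promoter windows the tRNA shares were 1.84%, 9.38% and 22.4%, and those of windows 0.433%, 0.615% and 1.18%. GC content was examined after the values had been seen. Its part in the shares of bound genes was not tested.

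**Figure D5:**
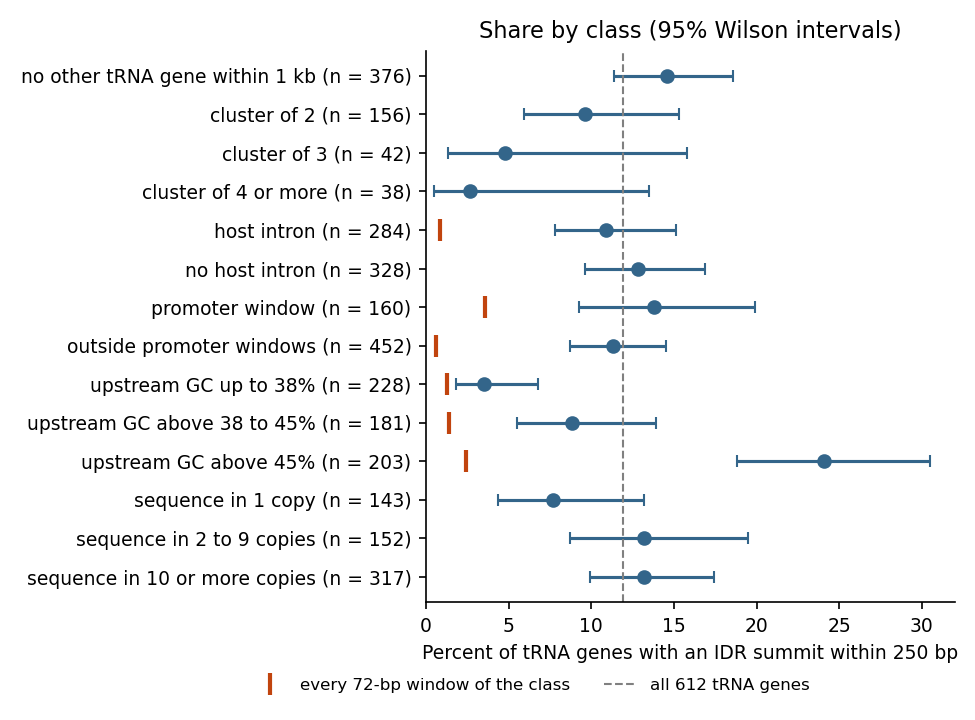
Percent of tRNA genes with an IDR summit within 250 bp, by clustering, host intron, promoter window, GC content of the 100 bp upstream and number of identical copies. Points are shares with 95% Wilson intervals, the dashed line is the 11.9% of all 612 genes, and upright marks are the shares of all 72-bp windows of the class where these were counted; the share above 45% GC, 24.1%, is the highest plotted.

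Some protein genes that act on tRNAs had LSY-2 summits in their own promoter windows. Of 24 listed genes for RNA polymerase III, its factors and the enzymes that process, modify and export tRNAs, 23 were matched by symbol and 7 had a summit, where 12.6% of protein-coding genes did. The highest-ranked peak, at rank 59 with a signal of 1250, was at mafr-1, whose product is the Maf1 repressor of RNA polymerase III. popl-1, for a subunit of RNase P, followed at rank 478 with a signal of 114, and pus-1, for a pseudouridine synthase, at rank 1252 with 57.7. The polymerase III subunit gene rpc-1, the exportin gene xpo-3, the thiolation gene tut-2 and the tRNA ligase gene rtcb-1 had signals of 46.0, 39.3, 39.2 and 38.0, at ranks 1730 to 2205. The TFIIIB gene brf-1, the TATA-binding protein gene tbp-1, rpc-2 and the 4 listed Elongator genes elpc-1 to elpc-4 were among the 16 without a summit. A summit in a promoter window can belong to a neighbouring gene, and the list was drawn up with earlier results of these data known.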

How the data were processed

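LSY-2 ChIP-seq peaks of mixed-stage embryos, 2 biological replicates in 1 group, were deposited as lists on ce11: 30000 peaks for each replicate and for the pooled replicates, and a shorter list of peaks that passed IDR. The authors deposited a signal value, a −log10 q-value (not used here) and the summit's offset from the peak start in bp. No aligner, peak caller, version, IDR threshold or rule for reads matching several sites was given in the sources used here. The longer lists were also made from another file, of unstated content per the deposited metadata. Read depth is unknown, and the possible controls that the labels name, and the ce10 lists, were not used here.

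Genes came from Ensembl release 115 on WBcel235, and sequences and isotypes from RefSeq; every ce11 peak ended within its chromosome. A summit was placed at peak start plus offset. A gene was clustered with another tRNA gene within 1000 bp, and intronic when wholly inside a protein-coding gene and clear of its exons. Shares have 95% Wilson intervals and their differences Newcombe intervals. No test was made, since there was no comparison group and tRNA genes share peaks and sequences. Named genes were, by peak signal, the nearest tRNA gene of the 15 highest peaks, the first of each chromosome, the first 8 outside promoter windows and in introns, the 5 clusters with most bound genes, the 3 largest without, and the 3 genes on each side of the limit. The members and lists were chosen with earlier results of these data known. The counting was checked on simulated peaks. Tables were handled in Python 3.11.15 with pandas 2.3.3 and numpy 2.4.6, intervals came from scipy 1.17.1 and statsmodels 0.14.6, and plots from matplotlib 3.10.9.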

Additional observations from a re-analysis of the deposited data

How the results depend on the processing

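A count was taken as kept within 1.5 times its main value, and a difference when it stayed inside the main 95% interval, whether or not its own interval included 0. By that measure 53 of 55 alternatives kept the result and 2 did not. Some alternatives were close to the main rule by construction, so the tally overstates how much was varied. The top pooled peaks, as many as in the IDR list, gave the same 73 genes, and the peak midpoint gave 72 of them. With the stronger IDR peaks alone, those above the median signal of the list, 16 tRNA genes were bound in place of 73. With a distance limit of 1000 bp, the difference between single and clustered genes was 0.861 percentage points in place of 7.0, where a summit can then reach several genes of a cluster. The clustering difference stayed inside its main interval, but its own interval included 0, at a cluster gap of 250 bp (2.82, -4.17 to 8.01), with the stronger peaks (2.19, -0.604 to 4.7) and without replicate 1 (4.13, -1.15 to 8.96). With as many top peaks of 1 replicate alone the number of bound genes was 59 to 70, of which 48 and 54 were among the 73. The differences without 1 replicate ran from 2.24 to 4.24 points between X and autosomes, 4.13 to 5.35 between single and clustered genes, 1.56 to 4.26 between genes without and with a host intron, and 1.33 to 2.28 between genes in and outside promoter windows. The intron difference was -0.198 points with a limit of 100 bp, and the promoter difference was -0.155 with the stronger peaks. With promoter windows from 500 bp before to 100 bp after a 5′ end the promoter difference was 6.87 points, with an interval of -0.474 to 16.7, and the count of tRNA pathway genes was 5 in place of 7. Placing the summit in place of the gene in the promoter window gives no share of unbound genes: 20 of the 73 bound genes had the summit in a window, against 22 that overlapped one themselves. No paired analysis was possible because the replicates form 1 group. Read depth, the placing of reads among identical genes and the controls not used here limit what a peak at a tRNA gene shows.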
